A study of Mus musculus with 8 samples.

Results

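The 10 genes described here encode the receptor chains, kinases, transcription factor and feedback or target proteins through which leukaemia inhibitory factor (LIF) acts on mouse embryonic stem (ES) cells. They are Lifr, Il6st and Osmr (receptor chains), Jak1 and Jak2 (kinases), Stat3, and Socs2, Socs3, Pim1 and Pim3 (genes known to be induced by STAT signalling). They were taken by symbol from the table of gene counts, as a list made with earlier results of these data known. All are reported whatever their values. All 10 of the 36255 genes in the table that bear these names were present. All 10 passed the filter on low counts, as did 16542 genes in all. RNA was selected on its poly(A) tail and counted per gene in 8 libraries. The genotypes, Skp1a fl/fl and Skp1a KO, were each sampled as ES cells and as embryoid bodies at day 2 (EBd2), aggregates in which ES cells start to differentiate. Each of the 4 groups held 2 libraries, named by lots 1, 2 and 12. All were grown in medium that the labels call standard for ES cells or embryoid bodies. The labels do not say whether that medium held LIF at either stage, how Skp1a was deleted, or whether the lots stand for separate cultures or clones. The p values therefore measure the spread between these libraries only, which may be technical.

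LIF binds the LIF receptor chain, which pairs with the shared chain encoded by Il6st. Janus kinases bound to these chains phosphorylate each other and the receptor, STAT3 docks there, is phosphorylated, and moves to the nucleus as a dimer. In mouse ES cells this signal helps to hold the naive pluripotent state, in which STAT3 acts through factors such as TFCP2L1, KLF4 and GBX2. SOCS3 is induced by STAT3, binds the receptor and JAKs, and shuts the signal down, so its transcript is widely used as a readout of the pathway.

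All 10 are protein-coding genes of the GENCODE annotation (GRCm38). Lifr lies at chr15:7090614-7197489 on the plus strand, with Osmr near it at chr15:6813577-6874969 on the minus strand, and Il6st at chr13:112464070-112510086 (plus). The kinase genes lie at chr4:101152367-101265282 (Jak1, minus) and chr19:29251828-29313080 (Jak2, plus), and Stat3 at chr11:100885098-100939540 (minus). Socs3 lies at chr11:117966079-117970047 (minus), Socs2 at chr10:95385362-95417180 (minus), Pim1 at chr17:29490753-29496112 (plus) and Pim3 at chr15:88862186-88865726 (plus). Counts cover whole genes, so no exon or isoform can be told from another.

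Totals were 21545868 to 23343471 counts in ES cell libraries and 7858452 to 10055667 in EBd2 libraries. A single count therefore stood for 0.0446 to 0.0489 CPM (counts relative to library size, after TMM scaling) in ES cells and for 0.0894 to 0.135 CPM in EBd2. The targeted gene, Skp1a, which encodes an adaptor of SCF ubiquitin ligases, was measured in ES cells at 420.2 and 430.3 CPM (fl/fl) and 368.9 and 361.3 CPM (KO). In EBd2 it stood at 401.4 and 389.1 CPM (fl/fl) and 285.8 and 289.6 CPM (KO). It was lower in every library labelled KO but far from absent, and the genotype is given here by its label. The tissue field of the labels follows genotype, with ES cell for every KO library and embryoid body for every fl/fl one. It goes against the sample titles, which set the groups here. The 5 ES cell markers listed (Pou5f1, Sox2, Nanog, Zfp42, Esrrb) were found in every group, with sums from 2723 to 2753 CPM (fl/fl ES cells) down to 1496 to 1562 CPM (KO EBd2). Markers of fibroblast feeder cells (10 genes) summed in ES cells to 757.2 to 792.9 CPM (fl/fl) and 872.9 to 942.9 CPM (KO). Their sum in EBd2 was 55.2 to 57.3 CPM (fl/fl) and 198.8 to 220 CPM (KO). None of the 10 was at 0 in any group.

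In day 2 embryoid bodies all 10 genes differed between genotypes, and not in one direction. Stat3 was 2.14-fold, Socs3 3.59-fold and Osmr 4.0-fold higher in KO than in fl/fl EBd2, while Socs2 was 5.29-fold lower. The receptor gene Lifr and the kinase genes Jak1 and Jak2 were moderately higher, and Il6st, Pim1 and Pim3 moderately lower. By the edgeR quasi-likelihood test with Benjamini-Hochberg adjustment over all genes, 6 of the 10 were called higher and 4 lower at an adjusted p under 0.05, against 30.7% of all genes called higher and 31.5% called lower. With library sizes only in place of TMM factors, the split was 6 higher and 2 lower. That scaling raised the median change of all genes by 0.23 (log2) in this comparison, by 0.07 in ES cells, and by 0.16 for the interaction. Transcripts encoded by mitochondria took 2.28% to 2.7% of counts in the fl/fl and 3.15% to 3.24% in the KO libraries of EBd2, and 1.73% to 1.76% and 2.42% to 2.43% in those of ES cells. The genotypes did not overlap in this share at either stage, and its part in the results was not tested. In bulk RNA, fewer cells of a type and less RNA per cell cannot be told apart.

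In ES cells the differences were small and mostly downward. Of the 10 genes 1 was called higher (Osmr) and 6 lower (Lifr, Stat3, Socs2, Socs3, Pim1 and Pim3), against 10.9% of all genes called higher and 12.8% lower. The falls lay between 0.21 and 0.35 on the log2 scale. Il6st, Jak1 and Jak2 did not pass. Leaving out single libraries gave 5 to 7 genes called.

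**Figure D1:**
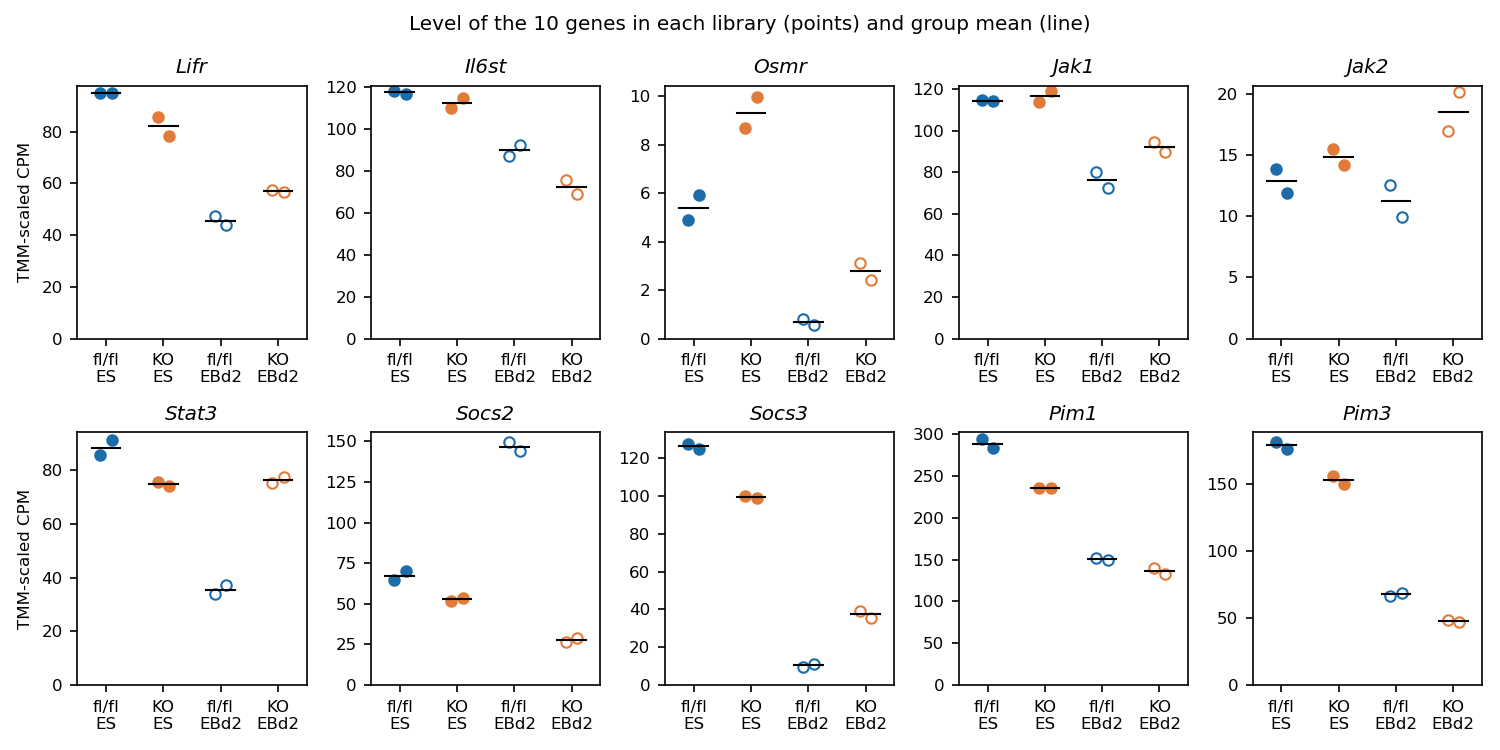
Level of each of the 10 genes, in TMM-scaled CPM on axes that start at 0. Each point is 1 library (filled for ES cells, open for EBd2; blue for fl/fl, orange for KO) and each line a group mean of 2. Stat3 and Socs3 are lowest in fl/fl EBd2, at 33.9 to 37.3 and 9.58 to 11.1 CPM, whereas Socs2 is highest there, at 144.3 to 149.4 CPM.

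**Figure D2:**
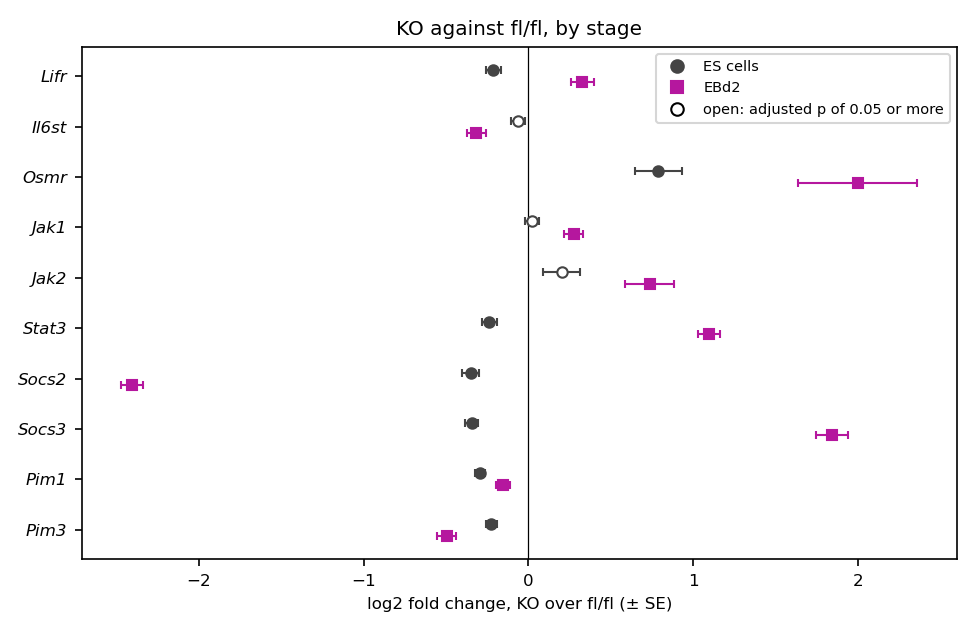
Change of each gene in KO against fl/fl, as log2 fold change with its standard error, in ES cells (circles) and EBd2 (squares). Open symbols mark an adjusted p of 0.05 or more. Stat3, Socs3 and Lifr lie below 0 in ES cells and above 0 in EBd2, and Socs2 lies farthest to the left, at -2.40 in EBd2.

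Among the receptor chains, Lifr encodes the chain that binds LIF itself. It was measured at 95.1 CPM in both fl/fl ES cell libraries, 85.9 and 78.3 CPM (KO ES cells), 47.4 and 43.8 CPM (fl/fl EBd2), and 57.6 and 56.7 CPM (KO EBd2). The groups did not overlap, and the order was fl/fl ES, KO ES, KO EBd2, fl/fl EBd2. In fl/fl cells Lifr fell by 1.06 ± 0.06 on the log2 scale from ES cells to EBd2 (edgeR adjusted p = 6.19e-08), and in KO cells by 0.52 ± 0.06 (adjusted p = 7.21e-06). It was higher in KO than in fl/fl EBd2 (0.33 ± 0.07, adjusted p = 0.00169), and lower in KO ES cells (-0.21 ± 0.05, adjusted p = 0.00742). The call in ES cells was lost without the fl/fl library of lot 1 (edgeR adjusted p = 0.0562) or lot 2 (0.0652), and without the KO library of lot 12 (0.0686). That call was also lost with lots as a block (edgeR adjusted p = 0.068). Errors of log2 changes are standard errors taken from the F statistic (its root divides the change), with 2 libraries per group.

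Il6st encodes the signal-transducing chain shared by the receptors of the whole IL-6 family. Its values were 118 and 116.7 CPM (fl/fl ES cells), 110 and 114.7 CPM (KO ES cells), 87 and 92.3 CPM (fl/fl EBd2), and 75.5 and 68.9 CPM (KO EBd2). The ES cell groups lay close together and did not pass the test (-0.06 ± 0.04, edgeR adjusted p = 0.317), while KO EBd2 lay below fl/fl EBd2 (-0.32 ± 0.06, adjusted p = 0.000549). With library sizes only, that difference became -0.09 and did not pass (edgeR adjusted p = 0.196). Its estimate was thus lower in KO at both stages, unlike that of Lifr, except that with library sizes only it was 0.01 in ES cells.

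Osmr encodes the chain that pairs with the Il6st product to receive oncostatin M, a relative of LIF. It was the least abundant of the 10, with 109 and 121 counts in the fl/fl and 195 and 215 in the KO ES cell libraries. In EBd2 it had 6 and 5 counts (fl/fl) and 32 and 27 counts (KO). In CPM these were 4.90 and 5.91, 8.70 and 9.96, 0.810 and 0.577, and 3.14 and 2.41. No 2 groups overlapped, and KO was the higher genotype at both stages, by 0.79 ± 0.14 in ES cells (edgeR adjusted p = 0.00245) and by 2.00 ± 0.36 in EBd2 (adjusted p = 0.000516). From ES cells to EBd2 it fell by 2.96 ± 0.30 in fl/fl and by 1.75 ± 0.18 in KO (adjusted p = 5.69e-06 and 6.34e-06). Most feeder markers moved in the same directions. Of the 10 markers 9 were called lower in fl/fl EBd2 than in fl/fl ES cells (30.1% of all genes). Thy1 was called higher there (0.48 ± 0.09). In KO against fl/fl, 9 were called higher in EBd2 (30.7% of all genes) and 5 in ES cells (10.9%). Thy1 did not pass in EBd2 (-0.03 ± 0.09). From ES cells to EBd2 in KO, 8 were called lower (33.1% of all genes). Col6a2 was called higher there (0.34 ± 0.09). Summed levels are given above. The part of such cells in the Osmr values was not tested.

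Jak1 encodes a kinase bound to the Il6st product. In ES cells it stood at 114.6 and 114.4 CPM (fl/fl) and at 113.7 and 119.2 CPM (KO), which overlapped (0.02 ± 0.04, edgeR adjusted p = 0.733). In EBd2 it was at 80.2 and 72.6 CPM (fl/fl) and 94.7 and 89.7 CPM (KO). It fell with differentiation in both genotypes, by 0.59 ± 0.05 in fl/fl and 0.34 ± 0.05 in KO, and was thus higher in KO EBd2 (0.28 ± 0.06, edgeR adjusted p = 0.00151).

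Jak2 encodes another kinase of the complex and was measured at lower levels. Values were 13.8 and 11.9 CPM (fl/fl ES cells), 15.5 and 14.2 CPM (KO ES cells), 12.5 and 9.92 CPM (fl/fl EBd2), and 17 and 20.1 CPM (KO EBd2). The fl/fl groups of both stages overlapped, and KO EBd2 was the highest group. The difference between genotypes passed in EBd2 (0.74 ± 0.15, edgeR adjusted p = 0.00108) and not in ES cells (0.20 ± 0.11, adjusted p = 0.219). It did not pass from ES cells to EBd2 in fl/fl (-0.21 ± 0.14, edgeR adjusted p = 0.241). In KO it rose by 0.32 ± 0.12 (edgeR adjusted p = 0.0319). That call failed by DESeq2 (adjusted p = 0.0629) and with lots as a block (edgeR adjusted p = 0.207). It also failed without lot 12 of KO ES cells (log2 change 0.26) and without lot 2 of KO EBd2 (0.19).

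Stat3, the transcription factor at the centre of the pathway, had less transcript in fl/fl embryoid bodies than in ES cells, and no change passed the test in KO cells. It was at 85.5 and 91.2 CPM (fl/fl ES cells), 75.6 and 74.2 CPM (KO ES cells), 33.9 and 37.3 CPM (fl/fl EBd2), and 75.3 and 77.4 CPM (KO EBd2). The KO groups of both stages overlapped, whereas the fl/fl EBd2 libraries lay far below all others. Stat3 fell by 1.31 ± 0.06 (2.47-fold) from fl/fl ES cells to fl/fl EBd2 (edgeR adjusted p = 1.06e-08), against a change of 0.03 ± 0.05 in KO (adjusted p = 0.63). With library sizes only, the KO change was 0.18 and passed (edgeR adjusted p = 0.00907). The difference between genotypes was 1.10 ± 0.07 in EBd2 (adjusted p = 6.70e-08) and -0.24 ± 0.04 in ES cells (adjusted p = 0.00312). The call in ES cells failed without lot 2 of fl/fl (edgeR adjusted p = 0.0573). By annotation 72 of the 9527 exon bases of Stat3 also lie in exons of Stat5a, on the other strand, and reads there cannot be assigned without strand.

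Socs3, the negative feedback gene, showed the largest fall of the 10 with differentiation in fl/fl cells, and in KO cells the third largest after Osmr and Pim3. Because STAT proteins bind the motif TTCNNNGAA, the 300 bases around the RefSeq start of each gene (250 before, 50 after, GRCm38.p6) were searched for it. The motif is its own reverse complement, so 1 search reads both strands. Windows were at hand for 9 of the 10 genes (11 windows, Lifr and Pim1 having a pair each). Of these 1 held the motif, that of Socs3, against 8.3% of all 32851 windows in the table. The 250 bases before the Socs3 start are shown because this was the only window of the 11 with the motif, which is given in capitals, centred 150 bases before the start (chr11:117969367-117969616, GRCm38.p6, minus strand, 5′ to 3′):

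Socs3: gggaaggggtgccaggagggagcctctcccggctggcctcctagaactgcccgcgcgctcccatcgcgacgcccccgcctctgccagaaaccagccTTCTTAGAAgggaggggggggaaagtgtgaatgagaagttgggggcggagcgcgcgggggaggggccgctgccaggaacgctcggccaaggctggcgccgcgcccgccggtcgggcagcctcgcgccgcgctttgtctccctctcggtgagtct

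The motif itself lies at chr11:117969512-117969520, in an intron of a longer non-coding Socs3 transcript of GENCODE and in no annotated UTR. A match of letters is a description and does not show that a factor binds there, and a window without the letters says nothing of more distant sites.

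Socs3 was measured at 127.7 and 124.8 CPM (fl/fl ES cells), 99.8 and 99.1 CPM (KO ES cells), 9.58 and 11.1 CPM (fl/fl EBd2), and 39.1 and 35.6 CPM (KO EBd2). The 4 groups did not overlap, and fl/fl cells held both the highest and the lowest. In fl/fl cells Socs3 fell 12.2-fold from ES cells to EBd2 (-3.60 ± 0.07, edgeR adjusted p = 3.17e-11), and in KO cells 2.67-fold (-1.41 ± 0.05, adjusted p = 1.98e-09). KO EBd2 thus stood above fl/fl EBd2 by 1.84 ± 0.09 (adjusted p = 2.09e-08), although KO ES cells stood below fl/fl ES cells by 0.34 ± 0.04 (adjusted p = 0.000184). Across 16 alternatives of the EBd2 difference the log2 value of Socs3 lay between 1.75 and 2.07, and across those in ES cells between -0.38 and -0.27.

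Socs2, a relative of Socs3 best known for restraining growth hormone signalling through STAT5, took the opposite course in embryoid bodies. It was at 64.5 and 70 CPM (fl/fl ES cells), 51.8 and 53.8 CPM (KO ES cells), 149.4 and 144.3 CPM (fl/fl EBd2), and 26.4 and 29 CPM (KO EBd2). It was the only one of the 10 that rose from ES cells to EBd2 in fl/fl cells (1.13 ± 0.05, 2.18-fold, edgeR adjusted p = 9.46e-09), and in KO cells it fell (-0.93 ± 0.07, adjusted p = 3.43e-07). The gap between genotypes was -0.35 ± 0.05 in ES cells (adjusted p = 0.000771) and -2.40 ± 0.07 in EBd2 (adjusted p = 2.39e-10).

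Pim1 and Pim3 encode serine/threonine kinases that promote survival and are induced by STAT3 and STAT5. Pim1 values were 294 and 283.5 CPM (fl/fl ES cells), 235.7 CPM in both KO ES cell libraries, 152.3 and 150.1 CPM (fl/fl EBd2), and 139.6 and 132.5 CPM (KO EBd2). Pim3 followed the same order, with 182 and 176.2, 156.4 and 150.4, 66.7 and 68.9, and 48.9 and 47.4 CPM. Neither gene had overlapping groups, and fl/fl was above KO at each stage, except that with library sizes only the Pim1 change in EBd2 turned sign. Pim1 fell by 0.93 ± 0.04 with differentiation in fl/fl and by 0.79 ± 0.04 in KO, and Pim3 by 1.40 ± 0.04 and 1.67 ± 0.05 (edgeR adjusted p of 1.19e-08 or less in each). KO ES cells were lower in Pim1 (-0.29 ± 0.03, edgeR adjusted p = 0.00017) and Pim3 (-0.22 ± 0.03, adjusted p = 0.00106).

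In EBd2 the Pim3 difference of -0.50 ± 0.06 passed (edgeR adjusted p = 1.40e-05), as did that of Pim1 (-0.15 ± 0.04, adjusted p = 0.0089). The Pim1 call did not hold with library sizes only, where its sign turned (0.07, edgeR adjusted p = 0.142), with a stricter filter (0.0718), in thinned libraries (0.111), or without the KO EBd2 library of lot 2 (0.0712). Of the 3362 exon bases of Pim1, 488 are shared with an antisense transcript, Gm26885.

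The 10 genes span a wide range of abundance. Per kilobase of annotated exon, fl/fl ES cells held 85.9 CPM of Pim1, 73.8 of Pim3 and 43.7 of Socs3, then 15.8 of Jak1, 10.6 of Il6st, 9.28 of Stat3, 8.83 of Lifr and 7.06 of Socs2, and last 2.56 of Jak2 and 0.446 of Osmr. In fl/fl EBd2 Socs3 had dropped to 3.57 CPM per kilobase and Socs2 stood at 15.4, so their order was turned. In KO EBd2 Socs3 was at 12.9 and Socs2 at 2.9 CPM per kilobase, the order of ES cells. Exon length here is the union of all annotated exons, which overstates the length of most transcripts.

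The change from ES cells to EBd2 was compared between genotypes. In fl/fl cells 1 of the 10 genes rose (Socs2) and 8 fell, against 28.9% of all genes called higher and 30.1% lower. In KO cells 1 rose (Jak2) and 8 fell, against 31.7% and 33.1%. The members that fell are not the same in both, since Stat3 fell only in fl/fl by the test and Socs2 only in KO, and both differences were tested through the interaction of genotype and stage.

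**Figure D3:**
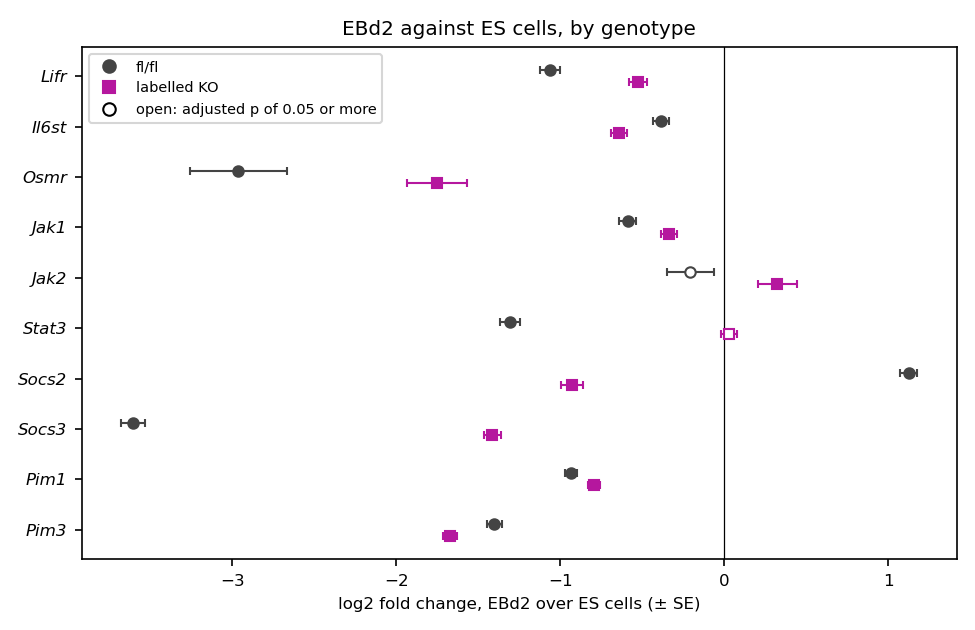
Change of each gene from ES cells to EBd2, as log2 fold change with its standard error, in fl/fl (circles) and KO (squares). Open symbols mark an adjusted p of 0.05 or more. The symbols lie farthest apart for Socs3 (-3.60 and -1.41), Socs2 (1.13 and -0.93) and Stat3 (-1.31 and 0.03).

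By the interaction, the stage change was higher in KO for 6 of the 10 genes (Lifr, Osmr, Jak1, Jak2, Stat3, Socs3) and lower for 3 (Il6st, Socs2, Pim3), against 22.4% of all genes called higher and 25.7% lower. Socs3 differed by 2.19 ± 0.10 (edgeR adjusted p = 4.88e-08), Socs2 by -2.05 ± 0.08 (1.79e-08) and Stat3 by 1.34 ± 0.08 (2.24e-07). Lifr differed by 0.54 ± 0.08 (0.000283). These 4 calls held in every alternative run. Pim1 did not pass (0.14 ± 0.05, edgeR adjusted p = 0.0513). With library sizes only the split was 7 higher and 1 lower.

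The other 5 interaction calls were less firm. Without the fl/fl EBd2 library of lot 12, only 5 of the 10 genes were called, and Il6st (edgeR adjusted p = 0.0743), Osmr (0.177), Jak1 (0.104) and Jak2 (0.195) no longer passed. Osmr also failed without lot 1 of fl/fl EBd2 (0.0567), of KO EBd2 (0.0959) or of KO ES cells (0.0521), without lot 2 of fl/fl ES cells (0.0584), by DESeq2 (0.087) and in thinned libraries (0.054). Jak1 failed without the KO EBd2 library of lot 1 (0.0621), and Il6st without that of lot 2 (0.0628), with library sizes only (0.288) and in thinned libraries (0.161). Jak2 failed without lot 1 of fl/fl ES cells (0.127), lot 12 of KO ES cells (0.0937) or lot 2 of KO EBd2 (0.144), and by DESeq2 (0.0563). Pim3 failed with library sizes in place of TMM factors (0.179). With lots as a block, Il6st (edgeR adjusted p = 0.323), Osmr (0.0875), Jak1 (0.0607), Jak2 (0.336) and Pim3 (0.0539) all failed. All comparisons that share a group share its libraries, so that the low fl/fl EBd2 values of Stat3 and Socs3 enter the stage, genotype and interaction values alike.

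For the 3 genes with the widest range of group means, the genes whose level moved most alike over the 8 libraries were found among 10943 genes with a mean of at least 5 CPM. Likeness was the root mean square difference of log2 CPM, each gene centred on its own mean. Closest to Socs3 was Klf4, a naive pluripotency factor known to be induced by LIF, at a distance of 0.14. Group means of Klf4 in ES cells were 155.8 CPM (fl/fl) and 109.4 CPM (KO), and in EBd2 12.7 CPM (fl/fl) and 41 CPM (KO). Inhbb, an activin subunit (0.29), and Vim, the intermediate filament vimentin (0.29), came next, with higher levels in KO than in fl/fl ES cells, unlike Socs3.

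Closest to Osmr were Filip1l (0.21), Pdgfrb (0.25) and Axl (0.25). PDGFRB and AXL are receptor tyrosine kinases, the former widely used as a marker of mesenchymal cells. Closest to Socs2 were Prph, the intermediate filament peripherin (0.11), Myrf, a membrane-bound transcription factor (0.11), and Ptch1, the Hedgehog receptor (0.15). Ptch1 stood at 145.7, 109.3, 333.6 and 49.5 CPM in fl/fl ES, KO ES, fl/fl EBd2 and KO EBd2.

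**Figure D4:**
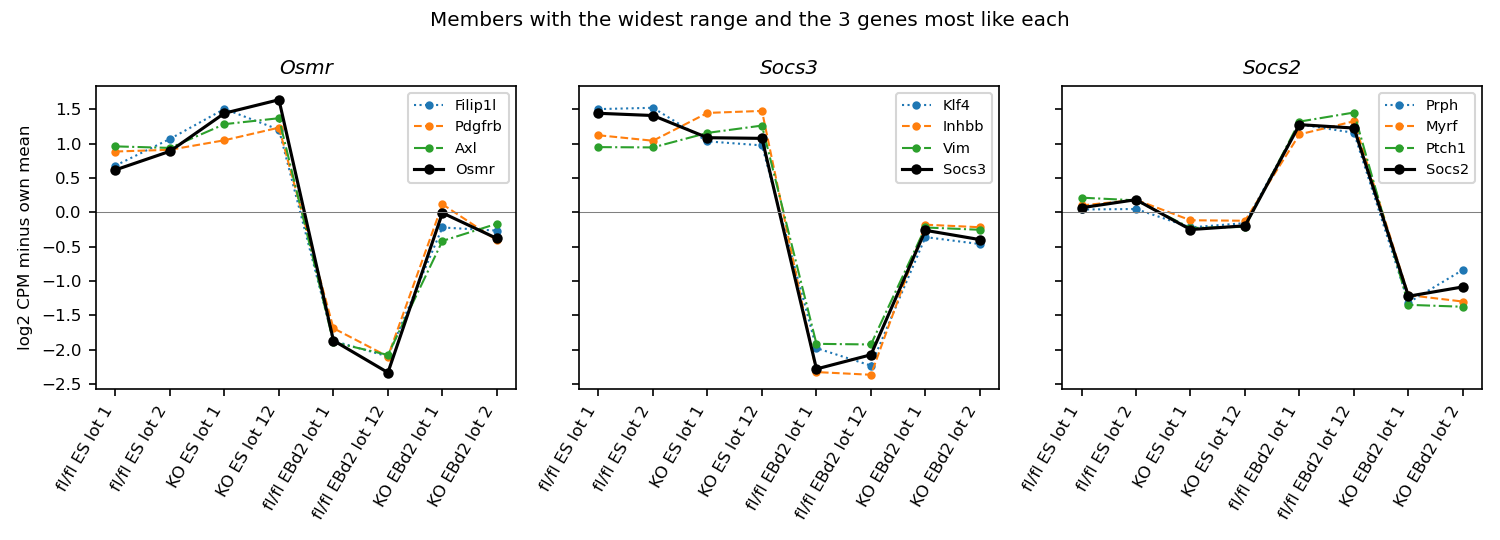
Log2 CPM of Osmr, Socs3 and Socs2 (black) and of the 3 candidate genes nearest to each (coloured), minus each gene's own mean, in the 8 libraries. Klf4 lies within a root mean square distance of 0.14 of Socs3, and Prph within 0.11 of Socs2.

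Other genes of the pathway were taken from 5 lists made by known role, with earlier results of these data known. Their counts in KO against fl/fl EBd2 stand beside 30.7% of all genes called higher and 31.5% called lower. Among 8 measured ligands of the IL-6 family, 5 were called higher and 1 lower in KO than in fl/fl EBd2. The median change was 1.21, against a median of 0.00 over all genes. Counts in fl/fl EBd2 were low for Osm (5 and 4), Il11 (6 and 4), Ctf2 (8 and 9) and Cntf (10 and 0). The change of Cntf did not pass (1.12 ± 0.94), and that of Il11 lay near the threshold (edgeR adjusted p = 0.0489). Osm, Il11 and Cntf are named for their low counts. Lif itself was at 8.64 and 6.0 CPM (fl/fl EBd2) and at 20.9 and 18.4 CPM (KO EBd2) (1.44 ± 0.15, edgeR adjusted p = 5.38e-06). Ctf2, a cardiotrophin, was also higher (1.73 ± 0.38), and Clcf1, a ligand of the CNTF receptor, lower (-1.54 ± 0.36). Without the fl/fl EBd2 library of lot 12, or by DESeq2, only 3 of the 8 ligands were called. Il6 and Il27 did not pass the filter.

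Of 4 other receptor chains measured, the interleukin 6 receptor gene Il6ra was called higher in KO EBd2 (2.65 ± 0.23, edgeR adjusted p = 1.39e-06) and the CNTF receptor gene Cntfr lower (-1.23 ± 0.15). Of the 8 JAK and STAT genes outside the 10, 4 passed as higher and 0 as lower (median 0.43). Jak3, a kinase best known from lymphocytes, was at 9.58 and 11.9 CPM (fl/fl EBd2) and at 30.3 and 31 CPM (KO EBd2) (1.5 ± 0.10). Stat6, the STAT of interleukin 4 signalling, was higher by 0.73 ± 0.10, and the kinase gene Tyk2 by 0.62 ± 0.09.

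The 14 other inhibitors covered a range from -0.50 to 0.62 in KO against fl/fl EBd2 (median -0.06), with 4 called higher and 5 lower, near the shares over all genes. The 3 with the smallest p were lower: Pias4 (-0.44 ± 0.06), Pias3 (-0.50 ± 0.08), both SUMO ligases of the PIAS family, and Socs7 (-0.42 ± 0.06). Among those called higher were Socs5 (0.62 ± 0.13) and Cish (0.59 ± 0.17), named after their values were seen. Socs1, a close relative of Socs3, had mean levels of 3.37 CPM (fl/fl) and 4.10 CPM (KO) in EBd2 and did not pass (0.28 ± 0.24, edgeR adjusted p = 0.329).

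Among 20 other genes known to respond to LIF or STAT3, 11 were called higher and 6 lower in KO than in fl/fl EBd2, with a median of 0.50, where 30.7% of all genes were called higher and 31.5% lower. Pluripotency factors of the list went both ways. Klf4 had 13.8 and 11.5 CPM (fl/fl EBd2) against 42.4 and 39.5 CPM (1.70 ± 0.09, edgeR adjusted p = 3.25e-08), Tfcp2l1 113.8 and 97 against 255.6 and 229.1 CPM (1.21 ± 0.07), and Klf5 60.5 and 61.5 against 118.8 and 119.4 CPM (0.96 ± 0.05). Tbx3 (2.31 ± 0.05), Gbx2 (2.45 ± 0.11) and Myc (0.54 ± 0.12) were higher as well. Nr0b1 (-0.58 ± 0.09) and Sall4 (-0.52 ± 0.05), also known as pluripotency factors, were lower, and were named after their values were seen.

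Pim2, the third kinase gene of the Pim family, stood apart from Pim1 and Pim3. It had 28.6 and 28.5 CPM (fl/fl ES cells), 22.8 and 22.4 CPM (KO ES cells), 230.2 and 248.9 CPM (fl/fl EBd2), and 43.9 and 46.4 CPM (KO EBd2). It thus rose with differentiation in both genotypes, by 3.07 ± 0.05 in fl/fl and 1.0 ± 0.06 in KO, and was lower in KO EBd2 by 2.41 ± 0.05 (edgeR adjusted p = 6.10e-11).

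The same lists were counted over differentiation, where 28.9% of all genes were called higher and 30.1% lower in fl/fl, and 31.7% and 33.1% in KO. Of the 20 responsive genes 3 rose and 12 fell in fl/fl cells, and 5 rose and 11 fell in KO cells. Of the 8 other JAK and STAT genes 0 rose and 7 fell in fl/fl, and 1 rose and 4 fell in KO. In KO against fl/fl ES cells, 1 of the 20 responsive genes was higher and 8 were lower (median -0.16), beside 10.9% and 12.8% of all genes.

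**Figure D5:**
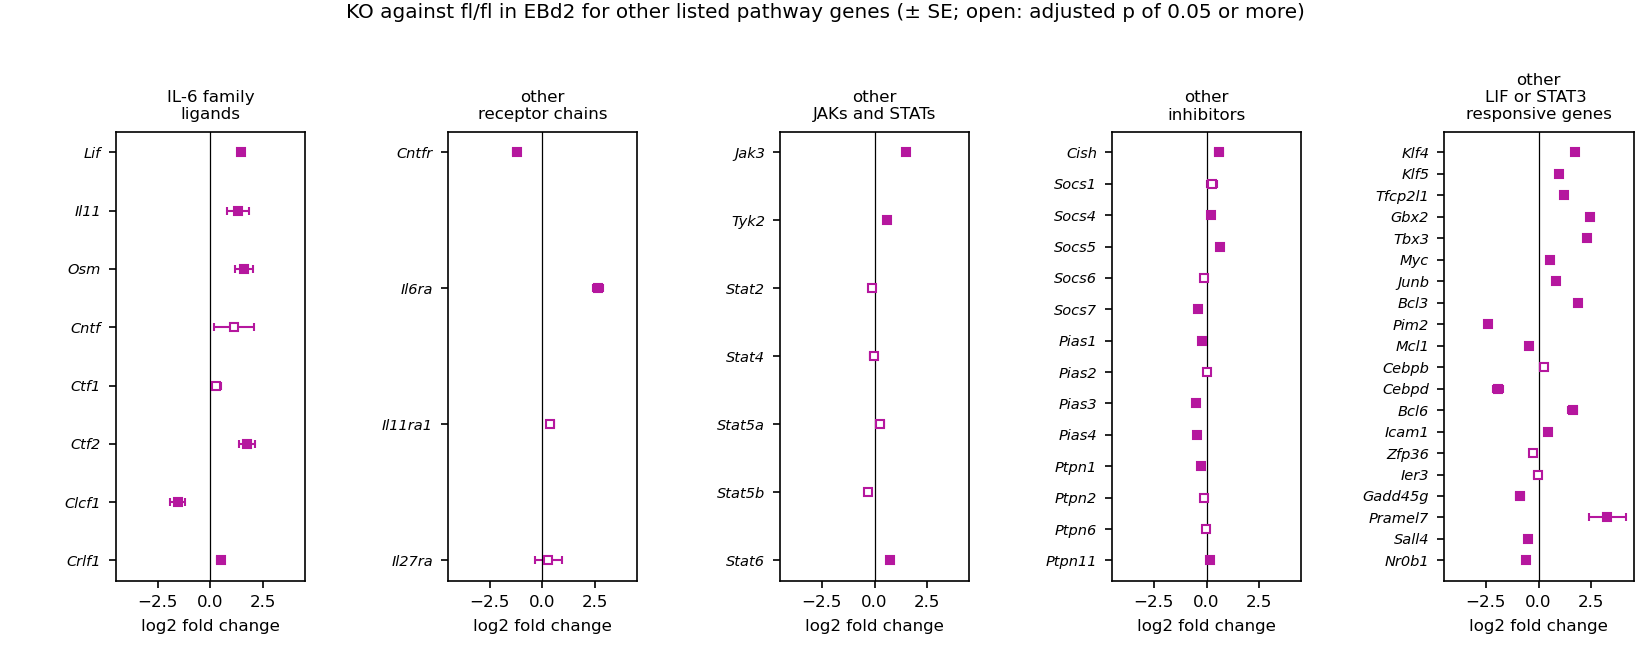
Change in KO against fl/fl EBd2 of other listed pathway genes, as log2 fold change with its standard error, 1 panel per list. Open symbols mark an adjusted p of 0.05 or more. Values range from -2.41 to 3.26 among the responsive genes, and from -0.50 to 0.62 among the inhibitors. The value of 3.26 ± 0.88 is that of Pramel7, named for its low counts (2 and 0 in fl/fl EBd2, 15 and 12 in KO EBd2).

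Marker genes of cell states differed between the same EBd2 groups, where 30.7% of all genes were called higher in KO and 31.5% lower. Of the 5 ES cell markers, Pou5f1 (-0.53 ± 0.04), Sox2 (-0.60 ± 0.04) and Esrrb (-0.68 ± 0.05) were called lower in KO EBd2 and Nanog higher (0.76 ± 0.05), while Zfp42 did not pass (-0.04 ± 0.05). The 4 formative epiblast markers were all called lower in KO EBd2, where they summed to 305.8 to 320.9 CPM, against 1668 to 1786 CPM in fl/fl EBd2. All 8 measured markers of primitive and visceral endoderm were called higher. Afp, also listed, did not pass the filter, with 2 and 1 counts in KO EBd2 and 4 and 5 in fl/fl EBd2. The list summed to 527.9 to 533.8 CPM against 185.9 to 191.5 CPM, of which Dab2 was the largest part (mean 291.2 against 133.1 CPM). Primitive streak markers were called higher in 4 of 5 cases and summed to 153.3 to 157.9 CPM against 18.7 to 20.1 CPM. The remaining marker, Fgf8, did not pass (-1.14 ± 0.64), with 12 and 4 counts in KO EBd2 and 12 and 15 in fl/fl EBd2. Trophectoderm markers were called higher in 6 of 7 cases, with sums of 744.7 to 760.5 CPM against 282 to 290.1 CPM. The other, Tfap2c, was called lower (-0.79 ± 0.05). The keratin genes Krt8 (mean 347.3 against 72.4 CPM) and Krt18 (244.3 against 93.3 CPM) are large parts of these sums. Eomes is in both the primitive streak and the trophectoderm list. Among blood and macrophage markers Hbb-bs was at 0 in every group. Ptprc did not pass the filter, with 1 and 2 counts in KO EBd2 and 2 and 1 in fl/fl EBd2. The 4 genes summed to 43.3 to 46.9 CPM in KO EBd2 against 12.1 to 12.8 CPM. That sum rests on Cd68 (mean 31.4 against 10.8 CPM) and Csf1r (13.6 against 1.52 CPM). The part of these cell states in the values of Stat3, Socs3, Socs2 and the other members was not tested.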

How the data were processed

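The values deposited by the authors are raw, unnormalized read counts by gene symbol, in 8 libraries of poly(A) RNA. The submitters' processing notes name Trim Galore 0.6.7, GRCm38 and mm10. Neither aligner, counting tool, annotation nor strand setting is stated there or in the labels. The 10 members and all lists were chosen with earlier results of these data known.

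These counts were tested with edgeR 4.0.16 in R 4.3.3. The filter filterByExpr kept 16542 of 36255 genes, and TMM factors scaled the library sizes. A model of 4 group means over all 8 libraries was tested by glmQLFit and glmQLFTest (two-sided) for 5 contrasts, and p values were adjusted by Benjamini-Hochberg over all genes tested, with a threshold of 0.05. The common coefficient of variation was 3.4%, with 4 residual degrees of freedom. The steps were tested on simulated data with 200 changed genes and a dispersion shared by all genes. In KO against fl/fl EBd2 10289 genes were called, and changes on that scale were not simulated. Replicates differed by more than counting noise in each group, with a chi-square per degree of freedom of 2.12 to 2.81.

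All members were named whatever their values. From each list up to 3 called genes with the smallest p in EBd2 were named, plus Lif, Socs1, Klf4, Klf5, Tfcp2l1, Gbx2 and Myc, and the 3 nearest genes of the 3 members with the widest range. The result of 1 further listed gene is not reported here. Log2 CPM for likeness used an offset of 0.5 counts. Positions and exon lengths come from GENCODE M21 (GRCm38), where 95.9% of symbols matched once, and promoter windows from RefSeq (GRCm38.p6). Alternatives were RLE scaling, library sizes only, no filter or a stricter one (5 CPM in 2 libraries), DESeq2 1.42.0, each library left out, only the 2 groups compared, lots as a block, and thinning to the smallest library.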

Additional observations from a re-analysis of the deposited data

Results flagged for a closer look

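The change from ES cells to EBd2 differed between fl/fl and KO, by the interaction test of edgeR, for 9 of the 10 genes. The difference (KO minus fl/fl, log2) was 2.19 for Socs3, -2.05 for Socs2, 1.34 for Stat3, 1.21 for Osmr, 0.54 for Lifr, 0.53 for Jak2, -0.27 for Pim3, -0.25 for Il6st and 0.25 for Jak1. Of all genes tested 22.4% were called higher and 25.7% lower in the same test. Whether the count sets these genes apart was not tested. For Osmr (± 0.40, edgeR adjusted p = 0.0284) and Jak2 (± 0.19, adjusted p = 0.0349) the errors are wide. Groups of 2 libraries are too small for a test of single libraries that stand apart.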

How the results depend on the processing

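Of 790 recomputed log2 changes of the 10 genes (50 results), 742 kept their direction and their side of the threshold, 37 lost and 6 gained the call, and 5 turned sign. With library sizes only, the log2 fold change of Il6st in ES cells was 0.00752 and that of Pim1 in EBd2 0.0747. Stat3 from ES cells to EBd2 in KO was at -0.00754 with no filter and at -0.00224 with the replicate block. Leaving out 1 library in turn gave Jak1 in ES cells a value from -0.0101 (no lot 12 of KO) to 0.0633 (no lot 1 of KO). Of these 5 only Pim1 had been called. Leaving out 1 library in turn gave 5 to 7 genes called in ES cells, 9 to 10 in EBd2, 9 to 9 for stage in fl/fl, 8 to 9 for stage in KO and 5 to 8 for the interaction. Where this left 1 library in a group, it was assumed to vary like the others.

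Lots were entered as a replicate block, although any 2 groups compared directly share only lot 1. The interaction uses all 4 groups, in which lots 2 and 12 also recur. Deviations of lot 1 correlated between groups at -0.02 to 0.02 over all tested genes. Genes with low counts weigh as much as others in this value, so it cannot decide whether the lots pair the libraries. With the replicate block 4 of 10 interaction calls were left (lost: Il6st, Osmr, Jak1, Jak2 and Pim3, with edgeR adjusted p = 0.323, 0.0875, 0.0607, 0.336 and 0.0539). The calls of Lifr in ES cells (0.068) and of Jak2 over stage in KO (0.207) were lost too, and 6, 10, 9 and 8 genes were called in the other contrasts. Of 413 recomputed values for the other named genes and lists in EBd2, 411 kept their call or stayed within 1.5 times the count. The other 2, both of the ligands, were 3. Other causes of these shifts were not tested. Osmr rests on 6 and 5 counts in fl/fl EBd2.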
